A study of Mus musculus with 12 samples.

Results

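The 50 genes described here encode the machinery of mitosis and chromosome segregation: mitotic cyclins and their kinase, checkpoint and anaphase factors, Aurora and Polo kinases, kinesins, kinetochore subunits, cytokinesis factors and condensin. They were chosen by name from a table of 55487 genes. Each was found under 1 Ensembl identifier, and all 50 passed the filter on low counts, as did 14591 genes in all. RNA was sequenced from wild-type B16F10 cells, a mouse melanoma line, after 24 h in medium conditioned by BMDM, which are bone-marrow-derived macrophages. The macrophages had been treated for 24 h with control medium (M0), with 20 ng/ml INF-γ, as the labels spell it, taken to be interferon gamma (M1), with 20 ng/ml IL-4 (M2), or with 75% medium conditioned by B16F10 cells (called TAM here, for tumour-associated macrophages). Each group had 3 libraries. The title of TAM replicate 2 spells the line in its macrophage medium differently from the other TAM titles (B16F107), and the library was placed in the group by its treatment label. All groups, M0 included, received macrophage medium, so a comparison with M0 is not one with untreated cells. No label states that the libraries of a group were separate cultures. The p-values then reflect the spread among the libraries alone, and that spread may be technical. Whether cytokine or tumour medium was washed out before collection is not stated.

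Entry into mitosis is driven by Cdk1 bound to cyclin B, which the Cdc25 phosphatases activate. Aurora and Polo-like kinases then build the spindle, kinetochores attach chromosomes to it, and the checkpoint holds back the anaphase-promoting complex until every chromosome is attached. Most of these genes are transcribed mainly in the second part of the cell cycle. Their promoters are known for a CHR element (cell cycle genes homology region), which is bound by the MuvB core, and for CCAAT boxes, bound by NF-Y. MuvB represses with a pocket protein and E2F4 as the DREAM complex, and activates with B-Myb and FoxM1. Cells that divide continuously, such as a melanoma line in culture, carry these transcripts in abundance.

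Promoter sequences from RefSeq (build GRCm38.p6) matched 42 of the 50 genes, with 44 entries because Prc1 and Ect2 have 2 each. No entry was found for Aurkb, Ccna2, Cdc25c, Incenp, Kif20a, Smc4, Spc24 and Tpx2. The 100 bases before the RefSeq start are shown for 8 genes, 6 that carry a motif there and 2 that do not, Ndc80 and Nuf2, whose proteins form a dimer but whose transcripts responded differently. Capitals mark the CHR motif (TTTGAA, or TTCAAA on the other strand) and the NF-Y motif (CCAAT, or ATTGG on the other strand). The 2 motifs share no bases in these windows.
Ccnb2 (chr9:70421555-70421654, minus strand): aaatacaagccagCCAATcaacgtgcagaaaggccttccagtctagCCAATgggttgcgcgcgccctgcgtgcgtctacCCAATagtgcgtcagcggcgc
Cdk1 (chr10:69352913-69353012, minus strand): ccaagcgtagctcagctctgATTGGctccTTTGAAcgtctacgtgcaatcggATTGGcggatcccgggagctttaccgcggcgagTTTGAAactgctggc
Cdc20 (chr4:118437344-118437443, minus strand): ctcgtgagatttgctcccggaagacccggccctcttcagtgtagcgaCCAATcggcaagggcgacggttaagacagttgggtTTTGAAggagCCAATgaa
Espl1 (chr15:102296193-102296292, plus strand): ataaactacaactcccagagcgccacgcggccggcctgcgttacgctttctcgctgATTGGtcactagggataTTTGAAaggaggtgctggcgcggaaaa
Kif11 (chr19:37376282-37376381, plus strand): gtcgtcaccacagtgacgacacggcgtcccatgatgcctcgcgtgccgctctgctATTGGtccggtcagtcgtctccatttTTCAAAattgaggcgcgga
Top2a (chr11:99024190-99024289, minus strand): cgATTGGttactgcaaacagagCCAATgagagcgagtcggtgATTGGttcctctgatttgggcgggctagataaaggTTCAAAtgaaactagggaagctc
Ndc80 (chr17:71526858-71526957, minus strand): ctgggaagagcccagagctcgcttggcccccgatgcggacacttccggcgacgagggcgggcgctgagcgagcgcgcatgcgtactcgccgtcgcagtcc
Nuf2 (chr1:169531465-169531564, minus strand): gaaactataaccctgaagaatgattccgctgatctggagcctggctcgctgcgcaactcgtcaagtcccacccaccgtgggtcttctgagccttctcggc
Positions are counted from -1 at the base before the start. In the printed bases Cdk1 carries CHR matches at -71 and -15 and NF-Y matches at -80 and -48. In Cdc20 a CHR match at -18 lies between NF-Y matches at -53 and -8, and in Espl1 and Kif11 a single CHR match, at -27 and -19, follows a single NF-Y match, at -44 and -45. Top2a has 3 NF-Y matches, at -98, -78 and -58, and a CHR match at -23. Ccnb2 has 3 NF-Y matches, at -87, -54 and -21, while its CHR matches lie outside the printed bases, at -167 and at base 5 of the transcript. The CHR match of Ndc80 is at base 30 of the transcript, and Nuf2 has neither motif in the whole window. GENCODE places 26 of the printed bases of Cdk1, 9 of Cdc20 and 27 of Espl1 in exons of longer transcripts.

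Over the window from 250 bases before to 50 after the start, searched on both strands, the CHR motif was present in 33 of the 44 promoters, 75.0%, against 17.9% of all 32851 mouse promoters in the table and 12.2% of those of the genes tested. The NF-Y motif was present in 72.7%, against 37.4% and 37.9%. Both motifs occurred together in 63.6% of the promoters, against 6.95% and 5.0%. The CHR matches lay close to the start: 32 of 42, or 76.2%, began at -50 or later, with a median at base 3. Of 69 NF-Y matches 67 began before the start, with a median at -65. In 88 further mitotic genes, kept in a separate list, 38.4% of 86 promoters held the CHR motif and 64.0% the NF-Y motif, and in a list of DNA replication genes 14.3% and 62.9% of 35 did. A match is a description of these letters, not a binding site.

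**Figure D1:**
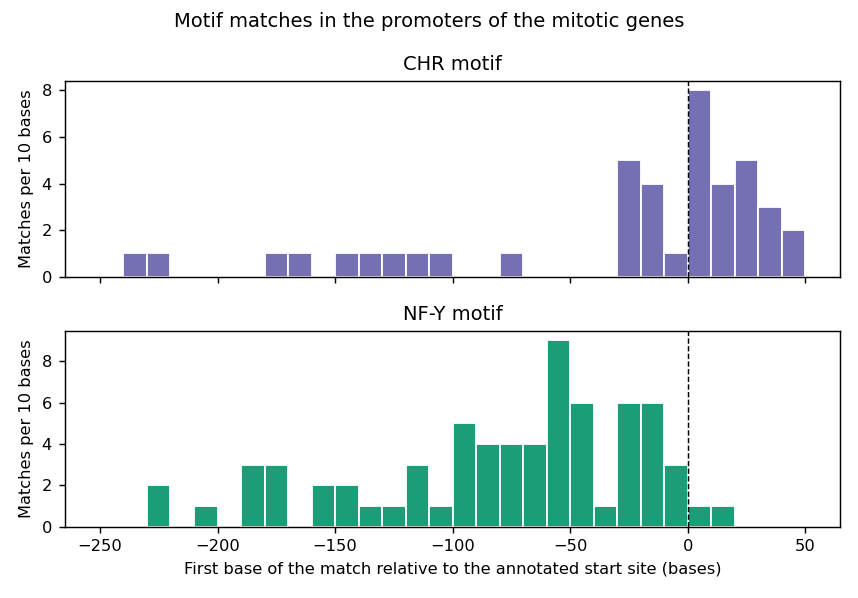
Histograms of the first base of each CHR motif (top) and NF-Y motif (bottom) relative to the annotated start site, in bins of 10 bases, for the 44 promoters. CHR matches gather around the start (32 of 42 at -50 or later), while 67 of 69 NF-Y matches lie before it.

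Library totals ran from 15916756 to 20863973 counts. M0 replicate 1 stood apart: its log2 CPM (CPM being counts relative to the library total after TMM scaling) had r = 0.945 and 0.948 across genes with the other M0 libraries, and other pairs within a group had 0.992 to 0.993. Its share of ribosomal protein counts was 7.21%, where the other libraries had 3.28% to 3.84%. The mean exon length over its counts was 4545 bp, where the others had 5817 to 6091 bp. Counts of calls and the changes from M0 of the genes named are therefore also given without it. Of the 7 melanocyte-lineage markers all were detected, the lowest at 108 CPM. Of 23 macrophage markers, Ptprc, Adgre1, Itgam, Cd163, Tyrobp, C1qa, C1qb, C1qc and Marco had no count in any library. The summed macrophage markers were 5.37 to 8.81 CPM in M0, 21.7 to 23.4 in M1, 5.90 to 6.56 in M2 and 3.74 to 4.77 in TAM, and in M1 Mpeg1, an interferon-responsive pore-forming protein gene, supplied 14.5 to 16.6 CPM of the sum.

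The departure of M0 replicate 1 reached most of the mitotic genes. Against the mean of M0 replicates 2 and 3, 31 of the 50 were lower in it and 19 higher, and 14 were lower by at least 2-fold. For 46 genes its level lay outside the range spanned by M0 replicates 2 and 3 and the 3 M2 libraries. These counts were not made over all genes tested, so they do not set the 50 genes apart from the rest. The lower genes were longer on the median, counted as merged exons of all annotated isoforms and not as 1 transcript. The median merged exon length was 6493 bp for the genes that were lower and 3402 bp for those that were higher. Smc2, Ect2 and Kif20b stood lowest, at log2 differences of -1.87, -1.85 and -1.68, and Pttg1, Spc24 and Birc5 highest, at 0.94, 0.76 and 0.76. Across the 50 genes, which share this library and are not independent replicates, the difference went with log2 exon length at Pearson's r = -0.68 and Spearman's rho = -0.69 (-0.42 and -0.48 over 14580 genes). The TAM change computed without this library had r = 0.15 and rho = 0.12 with length. Values for M0 therefore depend on whether this library is counted. The relation with length was a trend with exceptions. Smc2 and Ect2, at 5478 and 5386 bp, were near the median of 5055.5 bp over the 50 genes. Racgap1, at 7079 bp, differed by only -0.01.

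**Figure D2:**
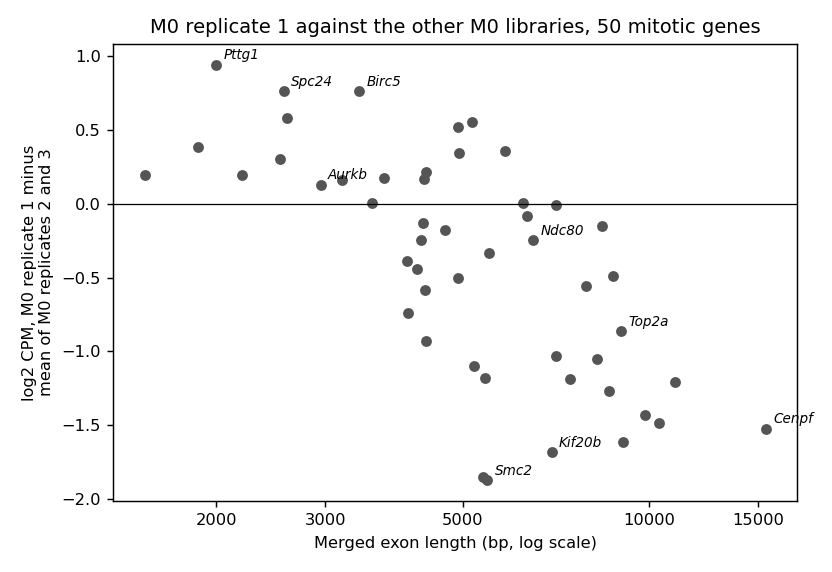
Each point is 1 of the 50 genes, with merged exon length on a log axis (bp) and the log2 difference in CPM between M0 replicate 1 and the mean of M0 replicates 2 and 3. Genes below the zero line, such as Smc2 at -1.87, were lower in replicate 1, and the shortest genes, such as Pttg1 at 0.94, were higher.

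Summed over the 50 genes, the level was lowest in TAM medium. The sum was 6726, 8557 and 8537 CPM in M0, 6625, 7222 and 6851 in M1, 8217, 8466 and 8320 in M2, and 3777, 3765 and 3853 in TAM. All TAM libraries lay below every other library, M1 lay below M2 and below M0 replicates 2 and 3, and only M0 replicate 1 fell among the M1 values. As a share of all counts the genes took 0.376% to 0.386% in TAM and 0.835% to 0.864% in M2. In bulk RNA, fewer dividing cells and less of these transcripts per dividing cell cannot be told apart.

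Gene by gene, in TAM versus M0, 42 of the 50 genes fell and 0 rose (edgeR quasi-likelihood test, Benjamini-Hochberg adjusted p under 0.05 over all genes tested), where 27.2% of all genes tested fell and 23.3% rose. Falls of at least 2-fold were called in 30 of the 50, against 12.2% of all genes. The median log2 change was -1.12, against -0.02 for all genes. Without M0 replicate 1, 49 genes fell, 33 of them at least 2-fold, where 33.7% of all genes fell and 10.1% fell at least 2-fold, and 1 rose, where 33% did. The median was then -1.28. In M1 versus M0, 23 genes fell and 0 rose, where 13.5% of all genes fell and 12.2% rose. No fall in M1 reached 2-fold, and the median was -0.25, against -0.02 for all genes. The M1 count depended on the libraries and on the fit: it was 14 without M1 replicate 1 or without M1 replicate 3, and 2 when only M0 and M1 were fitted. The share of all genes called in those fits is not set beside these counts. They therefore do not show a shift particular to the 50 genes. Leaving out M0 replicate 1, 43 fell and 1 rose, where 22.9% and 24.3% of all genes did, with a median of -0.29.

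**Figure D3:**
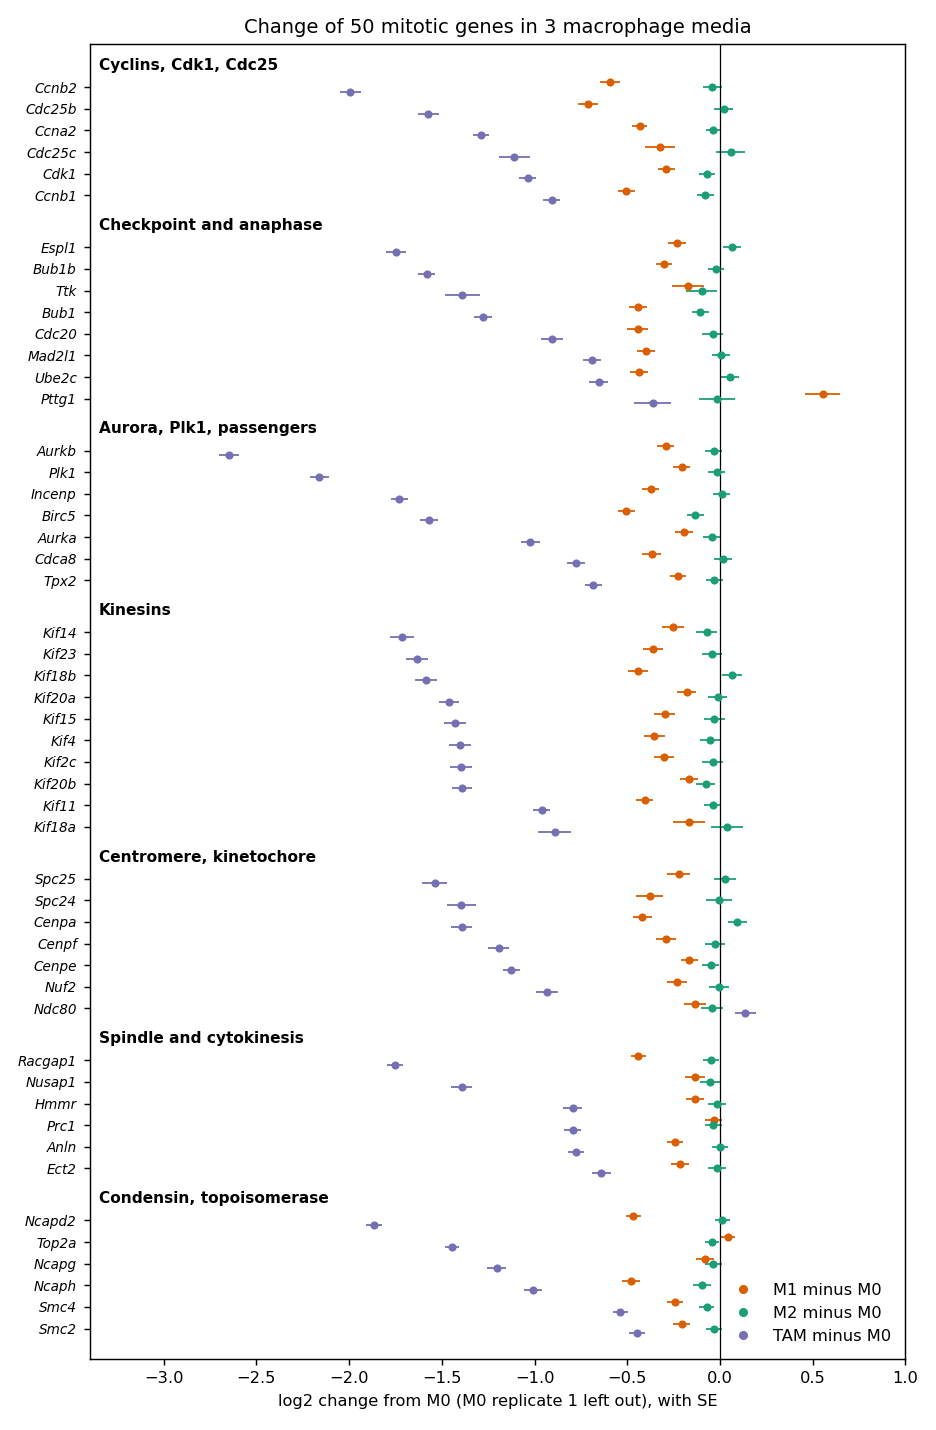
Log2 change from M0 for each of the 50 genes, grouped by role, in M1 (orange), M2 (green) and TAM medium (purple), with approximate SE, from the fit without M0 replicate 1. TAM points lie from -2.65 (Aurkb) to 0.14 (Ndc80), M1 points from -0.71 (Cdc25b) to 0.55 (Pttg1), and M2 points between -0.13 and 0.09.

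Cyclins, Cdk1 and the Cdc25 phosphatases, which start mitosis, all fell in TAM medium (6 of 6, median -1.23). Over all genes tested, the shares that fell were 27.2% in TAM and 13.5% in M1, or 33.7% and 22.9% without M0 replicate 1. These shares apply to the counts of every role group below. Groups without overlap were also common over the 14591 genes tested. TAM lay wholly below M0 in 4228 of them, below M1 in 5371 and below M2 in 5322. It lay wholly above them in 4360, 5312 and 5273. M1 lay wholly below M0 in 3198 and above it in 2971, and below M2 in 4392 and above it in 3668. A lack of overlap given for a gene below therefore does not set that gene apart. Ccnb2 (chr9:70407692-70421547, minus strand), 1 of the 2 B-type cyclins, was at 157, 135 and 138 CPM in M0, 81.0, 97.9 and 86.8 in M1, 131, 132 and 134 in M2 and 33.5, 35.4 and 34.5 in TAM. Its TAM and M1 libraries overlapped with no M0 or M2 library. The log2 change was -2.06 ± 0.10 (SE, adjusted p = 7.65e-08) in TAM and -0.70 ± 0.10 (SE, adjusted p = 0.000347) in M1. Ccnb1 (chr13:100778650-100786570, minus strand), the other mitotic B-type cyclin, was at 157, 212 and 215 CPM in M0, 141, 152 and 147 in M1, 192, 214 and 198 in M2 and 111, 118 and 114 in TAM, the smallest fall of the group, -0.77 ± 0.12 (SE, adjusted p = 0.000314). The M1 change of Ccnb1 was -0.41 ± 0.12 (SE, adjusted p = 0.028). Ccna2 (chr3:36564865-36572150, minus strand), the cyclin of S phase and early mitosis, was at 158, 261 and 266 CPM in M0, 183, 196 and 191 in M1, 254, 258 and 255 in M2 and 108, 106 and 111 in TAM. It fell in TAM by 1.08 on the log2 scale (SE 0.17, adjusted p = 0.000294). It was the 1 gene of this group that did not pass in M1, at -0.26 ± 0.16 (SE, adjusted p = 0.257), and its M0 replicate 1 lay below the M1 libraries. Without that library the M1 value was -0.43 ± 0.04 (SE, adjusted p = 7.74e-13). Cdk1, Cdc25b and Cdc25c fell in TAM by 1.16, 1.63 and 1.30 on the log2 scale, and Cdc25b had the largest M1 fall of the group, -0.81. In the fit without M0 replicate 1 all 6 fell in TAM (median -1.20) and in M1. The TAM changes of Ccnb2, Ccnb1, Ccna2, Cdk1, Cdc25b and Cdc25c were then -1.99, -0.91, -1.29, -1.04, -1.57 and -1.11, and the M1 changes of Ccnb2, Ccnb1 and Cdc25b -0.59, -0.51 and -0.71.

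The 8 checkpoint and anaphase genes all fell in TAM medium (median -1.03), and 3 of them fell in M1: Mad2l1, Cdc20 and Ube2c. Espl1 (chr15:102296266-102324357, plus strand) encodes separase, the protease that cuts cohesin. Its level was 105, 149 and 145 CPM in M0, 115, 131 and 119.7 in M1, 152, 158 and 149 in M2 and 44.3, 45.7 and 41.4 in TAM, and each TAM library was below every other library. The TAM change was -1.60 ± 0.13 (SE, adjusted p = 3.30e-06) and the M1 change -0.12 ± 0.13 (SE, adjusted p = 0.504), or -0.23 ± 0.05 (SE, adjusted p = 0.00011) without M0 replicate 1. Mad2l1 (chr6:66535390-66547220, plus strand), the checkpoint protein that binds Cdc20, was at 147, 166 and 159.9 CPM in M0, 112, 133 and 116 in M1, 165, 162 and 161 in M2 and 102, 99.8 and 103 in TAM. The groups ordered TAM, M1, then M0 and M2, with no overlap between TAM, M1 and the rest. Its changes were -0.64 ± 0.09 (SE, adjusted p = 0.000169) in TAM and -0.39 ± 0.09 (SE, adjusted p = 0.00972) in M1. Cdc20 (chr4:118432901-118437352, minus strand), the activator of the anaphase-promoting complex, was at 179.6, 136 and 139.6 CPM in M0, 87.5, 106.7 and 102 in M1, 132, 133 and 136 in M2 and 69.5, 78.0 and 73.5 in TAM. It fell by 1.04 in TAM (adjusted p = 4.41e-05) and by 0.62 in M1 (adjusted p = 0.00379). Ube2c (chr2:164769898-164778822, plus strand), the ubiquitin-conjugating enzyme of that complex, was at 227, 151 and 154 CPM in M0, 100.4, 119 and 109.9 in M1, 160.3, 154 and 158 in M2 and 96.3, 101 and 94.2 in TAM. The M1 and TAM libraries overlapped in this gene: TAM versus M1 gave -0.17 ± 0.15 (SE, adjusted p = 0.369), or -0.22 ± 0.05 (SE, adjusted p = 5.24e-05) without M0 replicate 1. Bub1, Bub1b and Ttk, kinases and a kinase-like protein of the checkpoint, fell in TAM by 1.03, 1.5 and 1.23. With M0 replicate 1 left out, the 8 genes fell in TAM again (median -1.09), and in M1 6 fell and 1 rose. The TAM changes of Espl1, Mad2l1, Cdc20, Ube2c, Bub1, Bub1b and Ttk were -1.75, -0.69, -0.91, -0.65, -1.28, -1.58 and -1.39 in that fit, and the M1 changes of Mad2l1 and Cdc20 -0.40 and -0.44.

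Pttg1 (chr11:43420250-43426251, minus strand), which encodes securin, the inhibitor of separase, went against the others in M1 medium and was singled out after its values were seen. It stood at 34.8, 18.2 and 18.1 CPM in M0, 23.7, 28.4 and 25.9 in M1, 18.2, 17.1 and 18.3 in M2 and 13.3, 15.05 and 14.0 in TAM. M1 lay above M2 and above M0 replicates 2 and 3, while M0 replicate 1 exceeded every other library. The M1 change was 0.13 ± 0.22 (SE, adjusted p = 0.68) with all libraries and 0.55 ± 0.09 (SE, adjusted p = 1.83e-06) without M0 replicate 1, and M1 versus M2 gave 0.54 ± 0.22 (SE, adjusted p = 0.128) and 0.57 ± 0.08 (SE, adjusted p = 5.95e-08). In TAM the gene fell, by 0.75 (adjusted p = 0.0157), or by 0.36 without M0 replicate 1. Espl1, the gene of its partner separase, fell in TAM more deeply than Pttg1 did, -1.60 against -0.75 (or -1.75 against -0.36), a difference between genes that was not tested.

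The role group with the deepest median fall in TAM versus M0 was that of the Aurora and Polo kinases and the chromosomal passenger complex, which corrects faulty attachments and directs cytokinesis (7 of 7 fell, median -1.78). Aurkb (chr11:69045647-69051664, plus strand), the kinase of the complex, was at 173, 163 and 153 CPM in M0, 119, 128 and 129.7 in M1, 152, 153 and 155 in M2 and 25.1, 25.6 and 25.2 in TAM. The TAM level was 6.44-fold lower than in M0, which is -2.69 ± 0.09 (SE, adjusted p = 1.18e-08) on the log2 scale. This was the deepest fall of the 50 genes, and M1 lay below M0 as well, at -0.38 ± 0.08 (SE, adjusted p = 0.00639). Plk1 (chr7:122159439-122169873, plus strand), the Polo-like kinase, stood at 187, 166 and 160.2 CPM in M0, 130.5, 144 and 138 in M1, 157, 161 and 162 in M2 and 34.2, 36.1 and 39.4 in TAM, with no overlap between TAM and the others. Its changes were -2.23 ± 0.10 (SE, adjusted p = 4.33e-08) in TAM and -0.31 ± 0.09 (SE, adjusted p = 0.0306) in M1. The scaffold and targeting subunits of the passenger complex fell less than its kinase: Incenp by 1.78, Birc5, which encodes survivin, by 1.86, and Cdca8, which encodes borealin, by 0.98. Tpx2 (chr2:152847964-152895321, plus strand), the spindle activator of Aurora A, fell least: it was at 239, 272 and 268 CPM in M0, 208, 242 and 225 in M1, 259, 269 and 261 in M2 and 166, 169.9 and 170.2 in TAM, a change of -0.62 ± 0.09 (SE, adjusted p = 0.000178). In M1 it was the 1 gene of the 7 not called, -0.21 ± 0.09 (SE, adjusted p = 0.109), or -0.23 ± 0.04 (SE, adjusted p = 3.10e-05) without M0 replicate 1. Aurka itself fell by 1.13 in TAM. When M0 replicate 1 was left out, all 7 fell in TAM (median -1.57) and in M1. The TAM changes of Aurkb, Plk1, Incenp, Birc5, Cdca8, Tpx2 and Aurka were then -2.65, -2.16, -1.73, -1.57, -0.78, -0.68 and -1.02, and the M1 changes of Aurkb and Plk1 -0.29 and -0.21.

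**Figure D4:**
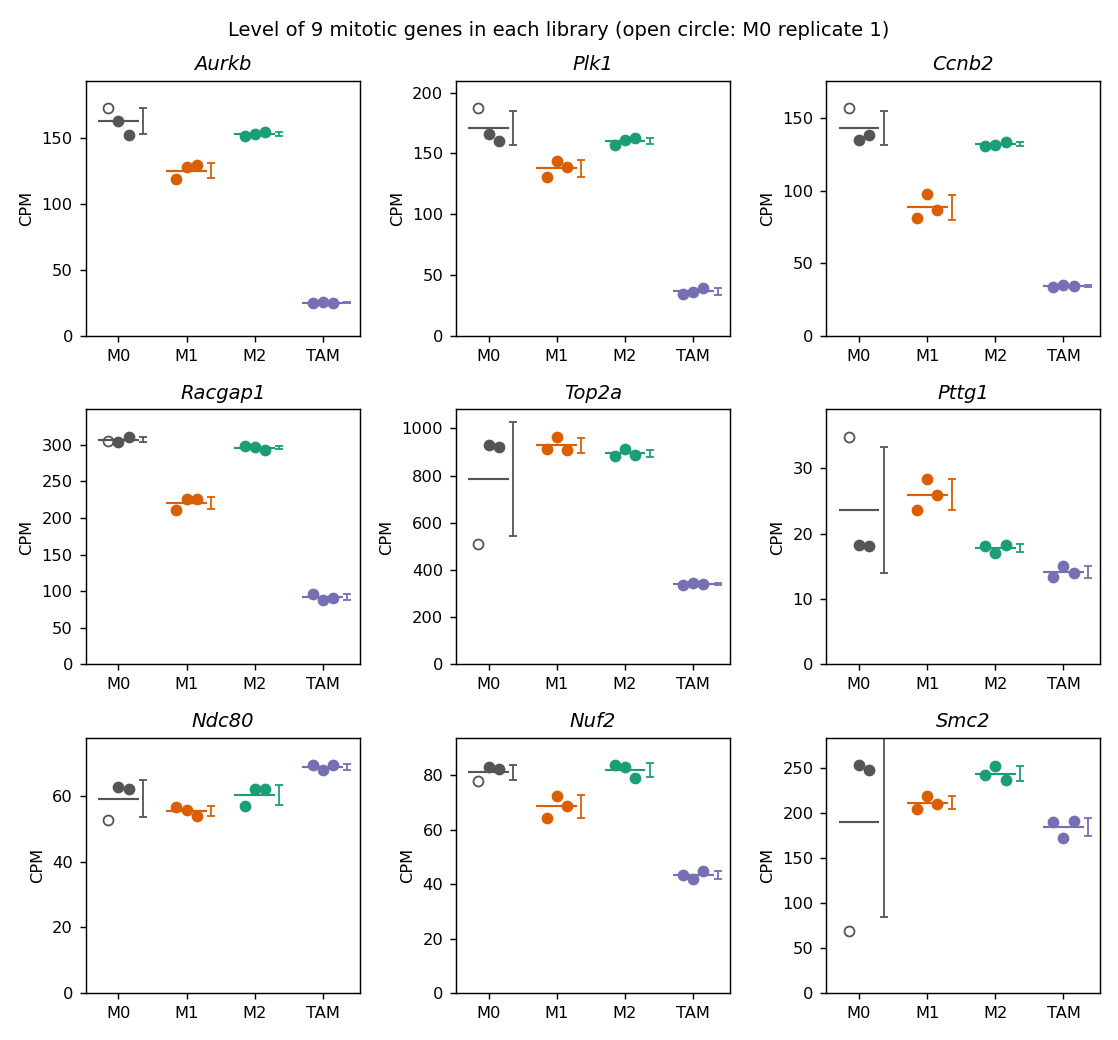
CPM in each library (points) for 9 of the genes, with the group mean (line) and SD (bar, n = 3), on axes that start at 0; the open circle is M0 replicate 1. Aurkb, Plk1, Ccnb2, Racgap1 and Top2a are lowest in TAM, and Ndc80 alone stands highest there. Top2a and Smc2 are lower in M0 replicate 1 than in the other M0 libraries. Pttg1 is highest in M0 replicate 1, and its M1 libraries lie above M2 and the other M0 libraries.

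Of the 10 kinesins, motors that build the spindle and carry chromosomes, 9 fell in TAM medium (median -1.29) and 2 in M1, Kif18b and Kif2c. The M1 count is near the 13.5% of all genes tested that fell in M1. Kif18b (chr11:102905529-102925124, minus strand), a microtubule-depolymerising motor, was at 93.0, 95.4 and 90.3 CPM in M0, 64.3, 66.5 and 68.6 in M1, 91.3, 99.5 and 98.4 in M2 and 31.3, 30.3 and 31.5 in TAM. M0 replicate 1 did not stand apart in this gene, and the TAM and M1 libraries each lay below all of M0 and M2. Its changes were -1.58 ± 0.08 (SE, adjusted p = 8.78e-08) in TAM and -0.48 ± 0.08 (SE, adjusted p = 0.00093) in M1. Kif2c (chr4:117159639-117182639, minus strand), which removes wrong attachments at the centromere, was at 97.9, 81.2 and 87.5 CPM in M0, 63.8, 68.7 and 67.7 in M1, 78.4, 82.7 and 84.3 in M2 and 31.5, 31.9 and 33.1 in TAM. It fell by 1.47 in TAM (adjusted p = 3.93e-07) and by 0.41 in M1 (adjusted p = 0.00635). Kif18a (chr2:109280738-109341747, plus strand), which damps chromosome movements, had 12.6, 33.0 and 34.7 CPM in M0, 30.6, 31.0 and 26.7 in M1, 31.2, 38.3 and 34.4 in M2 and 18.8, 16.3 and 20.0 in TAM. It was the kinesin not called in TAM, at -0.55 ± 0.29 (SE, adjusted p = 0.142), and M0 replicate 1 lay below the TAM libraries. Without that library the change was -0.89 ± 0.09 (SE, adjusted p = 3.89e-12). Kif11, Kif14, Kif15, Kif20a, Kif20b, Kif23 and Kif4 fell in TAM by between 0.66 (Kif11) and 1.47 (Kif23) on the log2 scale. The fit without M0 replicate 1 had all 10 lower in TAM (median -1.41) and 9 in M1. In that fit the TAM changes of Kif18b and Kif2c were -1.58 and -1.40 and their M1 changes -0.44 and -0.30, and the TAM changes of the 7 kinesins other than these and Kif18a ran from -0.96 (Kif11) to -1.72 (Kif14).

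Of 7 centromere and kinetochore genes, which link chromosomes to microtubules, 6 fell in TAM medium (median -0.90) and 4 in M1: Cenpa, Nuf2, Spc24 and Spc25. The exception in TAM was Ndc80 (chr17:71496100-71526857, minus strand), the microtubule-binding subunit of the complex of the same name. Its level was 52.7, 62.7 and 62.3 CPM in M0, 56.8, 55.8 and 53.9 in M1, 56.8, 62.0 and 62.2 in M2 and 69.4, 68.0 and 69.4 in TAM, so every TAM library was higher than every other library. The TAM change was 0.22 ± 0.09 (SE, adjusted p = 0.0623), or 0.14 ± 0.06 (SE, adjusted p = 0.0326) without M0 replicate 1. Against M1 it was 0.31 ± 0.09 (SE, adjusted p = 0.0152), and against M2 0.19 ± 0.09 (SE, adjusted p = 0.108), or 0.18 ± 0.05 (SE, adjusted p = 0.00155) without M0 replicate 1. Its partner Nuf2 (chr1:169497934-169531464, minus strand) stood at 77.9, 83.1 and 82.1 CPM in M0, 64.4, 72.5 and 68.7 in M1, 83.7, 83.0 and 78.9 in M2 and 43.2, 42.00 and 44.9 in TAM. It fell by 0.90 in TAM (adjusted p = 5.88e-06), or by 0.93 without M0 replicate 1. Spc24 (chr9:21755442-21760303, minus strand), a subunit at the centromere end of the complex, was at 82.0, 51.2 and 45.5 CPM in M0, 35.3, 37.9 and 35.2 in M1, 46.5, 48.2 and 48.7 in M2 and 16.6, 18.6 and 19.9 in TAM. Its TAM change was -1.70 ± 0.19 (SE, adjusted p = 3.09e-05), or -1.40 ± 0.08 (SE, adjusted p = 3.26e-22) without M0 replicate 1, which was its highest library. Spc25 fell by 1.59 and Cenpa, the centromeric histone H3, by 1.52, or by 1.54 and 1.39 without that library. Spc24 thus had the deepest fall of the group with all libraries, and Spc25 without M0 replicate 1. Cenpe (chr3:135212537-135273611, plus strand), a kinetochore motor, and Cenpf (chr1:189640606-189688086, minus strand), a large kinetochore protein, were both low in M0 replicate 1. Cenpe was at 84.4, 201 and 205 CPM in M0, 169.5, 187 and 174 in M1, 191, 203 and 192 in M2 and 91.4, 91.8 and 97.3 in TAM, with a TAM change of -0.81 ± 0.26 (SE, adjusted p = 0.0219), or -1.13 ± 0.05 (SE, adjusted p = 1.10e-27) without M0 replicate 1. Cenpf was at 75.6, 219 and 216 CPM in M0, 169.5, 186 and 164 in M1, 202, 229 and 205 in M2 and 97.3, 88.7 and 99.96 in TAM, with a TAM change of -0.83 ± 0.30 (SE, adjusted p = 0.0393), or -1.19 ± 0.06 (SE, adjusted p = 8.81e-17) without it. In M1 they were not called, 0.11 and 0.03. In the fit without M0 replicate 1 their M1 values were -0.17 ± 0.05 (SE, adjusted p = 0.00183) and -0.29 ± 0.06 (SE, adjusted p = 8.13e-05). Over the 7 genes that fit had 6 lower and 1 higher in TAM (median -1.19) and 6 lower in M1.

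Of 6 spindle and cytokinesis genes, 2 fell in TAM medium, Racgap1 and Nusap1, and all 6 did without M0 replicate 1 (medians -0.50 and -0.80). With all libraries, the counts of 2 in TAM and 1 in M1 are near the shares of all genes that fell, 27.2% and 13.5%. Racgap1 (chr15:99620496-99651656, minus strand), a subunit of the centralspindlin complex of the cleavage furrow, was at 306, 304 and 311 CPM in M0, 211, 226 and 226 in M1, 298, 297 and 294 in M2 and 96.1, 88.1 and 90.4 in TAM. Its libraries were tight in every group and TAM and M1 were each below all M0 and M2 libraries. The changes were -1.75 ± 0.08 (SE, adjusted p = 5.29e-08) in TAM and -0.47 ± 0.08 (SE, adjusted p = 0.00121) in M1, where it alone of the 6 fell, or -1.75 and -0.44 without M0 replicate 1, when 5 of the 6 fell in M1. Nusap1 (chr2:119618298-119651244, plus strand), a microtubule-bundling protein, was at 65.4, 82.4 and 88.8 CPM in M0, 74.5, 76.9 and 76.4 in M1, 84.1, 82.4 and 80.1 in M2 and 31.9, 33.7 and 32.5 in TAM, a TAM change of -1.27 ± 0.11 (SE, adjusted p = 4.02e-06), or -1.39 without M0 replicate 1. Ect2 (chr3:27097222-27153878, minus strand), the exchange factor that activates RhoA at the furrow, was at 46.9, 164 and 173 CPM in M0, 132, 151 and 143 in M1, 166, 172 and 161 in M2 and 115, 104 and 107.1 in TAM. M0 replicate 1 was its lowest library. With that library the TAM change was -0.24 ± 0.35 (SE, adjusted p = 0.597), and without it -0.64 ± 0.05 (SE, adjusted p = 4.04e-16). Anln, Hmmr and Prc1 followed the same pattern, with TAM changes of -0.41, -0.49 and -0.52 that did not pass, and of -0.78, -0.80 and -0.80 that passed without it.

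Condensin compacts chromosomes, and topoisomerase II untangles them. Of these 6 genes 4 fell in TAM medium (median -0.95), and all 6 did without M0 replicate 1 (median -1.11), while in M1 2 fell, or 4 without that library. Ncapd2 (chr6:125168007-125191701, minus strand), a regulatory subunit of condensin I, was at 513, 509 and 514 CPM in M0, 347, 368 and 365 in M1, 502, 521 and 518 in M2 and 137, 148 and 138 in TAM. The TAM change was -1.86 ± 0.08 (SE, adjusted p = 3.90e-08) and the M1 change -0.51 ± 0.08 (SE, adjusted p = 0.000732), with M0 replicate 1 level with the others, and without it they were -1.86 and -0.47. Ncaph (chr2:127103809-127133954, minus strand), the kleisin subunit, was at 125, 139.6 and 132 CPM in M0, 90.2, 99.1 and 95.3 in M1, 128, 129 and 123 in M2 and 65.9, 67.2 and 70.2 in TAM. It fell by 0.96 in TAM (adjusted p = 4.36e-06) and by 0.48 in M1 (adjusted p = 0.0017), or by 1.01 and 0.48 without that library. The ATPase subunits Smc2 (chr4:52439243-52488260, plus strand) and Smc4 (chr3:69004738-69034623, plus strand) had the smallest TAM changes of the group. Smc2 was at 68.4, 253 and 247 CPM in M0, 204, 219 and 210.3 in M1, 242, 252 and 237 in M2 and 189, 172 and 190.3 in TAM, a TAM change of -0.04 ± 0.35 (SE, adjusted p = 0.932), or -0.45 ± 0.04 (SE, adjusted p = 8.30e-13) without M0 replicate 1. Smc4 was at 146, 310.2 and 314 CPM in M0, 254, 263 and 253 in M1, 294, 289 and 302 in M2 and 214, 205 and 227 in TAM, a TAM change of -0.25 ± 0.22 (SE, adjusted p = 0.371), or -0.54 ± 0.04 (SE, adjusted p = 2.44e-16) without it. Unlike the regulatory subunits, the ATPases also serve condensin II, which acts earlier. Top2a (chr11:98992943-99024189, minus strand) had the highest level per kb of merged exon among the 50 genes, 103 CPM per kb over M0 replicates 2 and 3. Its libraries were at 509, 929 and 922 CPM in M0, 911, 964 and 909 in M1, 882, 912 and 888 in M2 and 336, 345 and 342 in TAM. TAM was below all other libraries, a change of -1.21 ± 0.19 (SE, adjusted p = 0.000304), or -1.45 without M0 replicate 1, and M1 was level with M0 replicates 2 and 3, at 0.04 ± 0.04 (SE, adjusted p = 0.387) without M0 replicate 1. Against M2, M1 gave 0.08 ± 0.03 (SE, adjusted p = 0.035) in that fit.

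Ratios of CPM between paired genes within a library, which need no M0 library as reference, were also computed. Ndc80 to Nuf2 was 1.54 to 1.62 in the 3 TAM libraries and 0.676 to 0.883 in the 9 others. Aurkb to Cdca8 was 0.362 to 0.368 in TAM and 1.35 to 1.44 in M1, 1.25 to 1.34 in M2 and 0.997 to 1.44 in M0. Ncapd2 to Smc2 was 0.722 to 0.859 in TAM, 1.68 to 1.74 in M1 and 2.06 to 2.19 in M2, while M0 ran from 2.01 to 7.51, with M0 replicate 1 at the top. Between the 2 B-type cyclins of the list, which are alternative partners of Cdk1, Ccnb1 to Ccnb2 was 3.30 to 3.33 in TAM and 1.00 to 1.74 elsewhere. In each of these 4 ratios the TAM libraries overlapped with no other library. The genes of centralspindlin did not separate TAM from M1 and M2: Racgap1 to Kif23 was 2.21 to 2.49 in TAM, 2.24 to 2.62 in M1, 2.41 to 2.62 in M2 and 2.52 to 3.73 in M0, which lay above TAM and had its highest value in M0 replicate 1. These pairs were picked after the values had been seen, and the ratios carry no test.

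In levels per kb of exon, over M0 replicates 2 and 3, the order ran from Top2a, Ccnb2 (89.4 CPM per kb), Ncapd2 (81.6), Plk1 (74.2) and Cdc20 (73.7) down to Kif14 (8.64), Cdc25c (6.97) and Kif18a (3.45). The length used merges the exons of all annotated isoforms, so the order could differ with the length of the transcript expressed. In TAM medium the order was led by Smc4 (41.4 CPM per kb), Cdc20 (39.4), Top2a (37.8) and Ube2c (37.4), and Aurkb went from 53.7 to 8.59. In M0, Plk1 and Cdc20 differed by less than the gap between their 2 libraries.

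M2 medium did not move the genes detectably. In M2 versus M0, 0 of the 50 were called and 0% of all genes tested were, with a lowest adjusted p of 0.535 among the 50 and 1 gene at an unadjusted p under 0.05. DESeq2 and limma-voom called 0 as well. Leaving out M0 replicate 1 again 0 were called, where 0.134% of all genes fell and 0.207% rose, and 2 had an unadjusted p under 0.05. The changes then lay between -0.13 (Birc5) and 0.09 (Cenpa). The SE of a member's change was near 0.08 in the first fit for genes such as Aurkb and 0.35 for Smc2, so a shift of a given size was less detectable in Smc2 with all libraries kept. For Aurkb the M2 change was -0.09 ± 0.08 (SE, adjusted p = 0.572), or -0.04 without M0 replicate 1, and for Birc5, the lowest, -0.44 ± 0.18 (SE, adjusted p = 0.535).

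Set against the other conditioned media directly, TAM was again the lower group, and no M0 level entered the difference. In TAM versus M2, 44 genes fell and 0 rose, where 22.6% of all genes fell and 20.7% rose, with a median of -1.20. In TAM versus M1, 40 fell, where 23.3% of all genes did, and 1 rose, Ndc80, where 19.8% did, with a median of -0.90. Without M0 replicate 1, 49 fell and 1 rose in both comparisons, where 35.3% of all genes fell and 34.2% rose in TAM versus M2 and 37.7% fell and 32.4% rose in TAM versus M1. Aurkb fell against M2 by 2.60 (adjusted p = 1.19e-08) and against M1 by 2.31 (adjusted p = 5.85e-09). In M1 versus M2, 15 genes fell and 0 rose, where 7.5% of all genes fell and 9.72% rose, with a median of -0.29. Cdc25b fell most, by 0.76 (adjusted p = 6.99e-05), followed by Ccnb2, by 0.58 (adjusted p = 0.00143). The count was 9 without any 1 of several other libraries (M1 replicate 1 or 3, any of M2 or any of TAM), and 43 were called when only M1 and M2 were fitted. For those fits, too, the share of all genes called is not given here. Without M0 replicate 1, which belongs to neither group but sets the shared spread, 42 fell and 2 rose, Pttg1 and Top2a, where 23.5% and 24.8% of all genes did.

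The TAM change was also split by motif. In the fit without M0 replicate 1 the median was -1.39 over the 31 genes with the CHR motif and -1.01 over the 11 without. Genes with both motifs (26) had a median of -1.39, and the 7 with neither, Birc5, Kif18a, Mad2l1, Ncaph, Nuf2, Nusap1 and Pttg1, of -0.93. Both sets span wide ranges, and the gene that did not fall, Ndc80, has a CHR motif and no NF-Y motif in the window. Birc5, with neither, fell by 1.57 in that fit, more than Cdk1, which has both, by 1.04. With all libraries the medians were -1.155 with the CHR motif and -0.902 without, and -1.22 with both motifs and -0.902 with neither. The 8 genes without a promoter entry, Aurkb among them, are in none of these sets. Their median was -1.34 without M0 replicate 1. These medians are a description of matches in this window and were not tested.

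The fall reached beyond the 50 genes. Of 88 other mitotic genes, 64 fell and 5 rose in TAM versus M0 (median -0.73), where 27.2% of all genes fell and 23.3% rose. In M1 25 fell and 0 rose, where 13.5% and 12.2% of all genes did, and 0 were called in M2. With M0 replicate 1 left out, 78 fell and 6 rose in TAM (median -0.75), where 33.7% and 33% of all genes did, and 63 fell and 3 rose in M1, where 22.9% and 24.3% did. Melk, a mitotic kinase gene, was at 72.6, 74.6 and 74.3 CPM in M0, 62.3, 68.0 and 64.3 in M1, 74.4, 72.5 and 77.1 in M2 and 11.8, 13.0 and 11.3 in TAM, a TAM change of -2.62 ± 0.09 (SE, adjusted p = 1.33e-08), or -2.63 without that library. Cenpm, Mki67, Fbxo5 and Pbk followed, at -2.08, -2.02, -1.98 and -1.90 with all libraries, and at -1.63, -2.36, -2.08 and -1.86 without M0 replicate 1. Wapl, which releases cohesin, was at 67.6, 125 and 129.6 CPM in M0, 130.3, 139 and 117 in M1, 124, 130.5 and 125 in M2 and 223, 211 and 227 in TAM, a rise of 1.04 ± 0.20 (SE, adjusted p = 0.00132), or 0.79 without M0 replicate 1. Pds5a, Cenpq, Anapc10 and Kif2a rose by 0.75, 0.46, 0.36 and 0.34, or by 0.42, 0.32, 0.39 and 0.19 without it. Cdc27 was not called, at 0.52 ± 0.26 (SE, adjusted p = 0.12), or 0.20 ± 0.04 (SE, adjusted p = 0.000137) without M0 replicate 1.

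Among 24 genes for regulators of mitotic transcription, 8 fell and 5 rose in TAM versus M0, which is near the 27.2% and 23.3% of all genes, with a median of -0.06. In M1 6 fell and 0 rose, where 13.5% and 12.2% of all genes did. Leaving M0 replicate 1 out, 10 fell and 6 rose in TAM, where 33.7% and 33% of all genes did, and 13 fell and 5 rose in M1, where 22.9% and 24.3% did. The activators Foxm1 and Mybl2 were among those that fell. Foxm1 was at 197, 227 and 236 CPM in M0, 191, 207 and 217 in M1, 236, 244 and 234 in M2 and 83.1, 89.8 and 89.7 in TAM, a TAM change of -1.33 ± 0.10 (SE, adjusted p = 1.18e-06), and in M1 it was -0.10 ± 0.10 (SE, adjusted p = 0.441). The fit without M0 replicate 1 gave -1.41 in TAM and -0.14 ± 0.05 (SE, adjusted p = 0.0103) in M1. Mybl2, which encodes B-Myb, was at 93.2, 66.8 and 71.6 CPM in M0, 53.5, 58.5 and 61.7 in M1, 66.1, 67.8 and 64.3 in M2 and 16.7, 16.4 and 18.8 in TAM, changes of -2.16 ± 0.13 (SE, adjusted p = 3.93e-07) in TAM and -0.42 ± 0.13 (SE, adjusted p = 0.0329) in M1, or -2.01 and -0.22 without that library. E2f1, an activator of S-phase genes, changed by -1.87 in TAM and -0.67 in M1, and the atypical repressors E2f7 and E2f8 by -1.12 and -2.35 in TAM. Without it the TAM values of these 3 genes were -1.72, -1.48 and -2.57, and E2f1 had -0.47 in M1. The list holds 11 genes of DREAM subunits. In TAM versus M0 1 of them fell, Tfdp1, 1 rose, Lin52, and 9 were not called, and without M0 replicate 1 the counts were 3 (Tfdp1, Rbl1 and Rbl2), 1 and 7. Rbl1, a pocket protein gene, had -0.49 ± 0.35 (SE, adjusted p = 0.265), or -0.90 ± 0.05 (SE, adjusted p = 4.50e-23) without M0 replicate 1. Rbl2, its relative, had 0.15 ± 0.28 (SE, adjusted p = 0.683), or -0.19 ± 0.07 (SE, adjusted p = 0.0119) without that library, which turned its direction. E2f4 had -0.13 ± 0.09 (SE, adjusted p = 0.24) and the MuvB subunit Lin9 0.29 ± 0.31 (SE, adjusted p = 0.449), or -0.08 and -0.07 without it, again not called. Tfdp1, an E2F partner, fell by 0.64, while Lin52, another MuvB subunit, and Nfyb, an NF-Y subunit, rose by 1.21 and 1.37. Nfyc fell by 0.57, and Nfya had 0.21, not called. In the fit without M0 replicate 1 Tfdp1, Lin52, Nfyb, Nfyc and Nfya had -0.86, 1.05, 1.22, -0.46 and -0.01, with Nfya again not called. These 5 genes and the DREAM count were chosen after the values were seen.

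Cdkn1a, which encodes the Cdk inhibitor p21, moved the other way. It was at 207, 124 and 120.3 CPM in M0, 215, 217 and 215 in M1, 119, 129 and 129 in M2 and 475, 509 and 468 in TAM. TAM was higher than every other library, and M1 was higher than M2 and M0 replicates 2 and 3, with M0 replicate 1 just below M1. The TAM change was 1.69 ± 0.18 (SE, adjusted p = 2.24e-05), or 1.98 without M0 replicate 1, and the M1 change 0.52 ± 0.18 (SE, adjusted p = 0.0515), or 0.86 ± 0.05 (SE, adjusted p = 4.34e-22) without M0 replicate 1. Trp53, the gene of p53, which activates Cdkn1a, was at 211, 159 and 156 CPM in M0, 185, 208 and 199.7 in M1, 162, 163 and 160.0 in M2 and 224, 227 and 209.6 in TAM, a TAM change of 0.33 ± 0.12 (SE, adjusted p = 0.0363), or 0.48 without M0 replicate 1. The part of these regulators in the change of the mitotic genes was not tested.

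**Figure D5:**
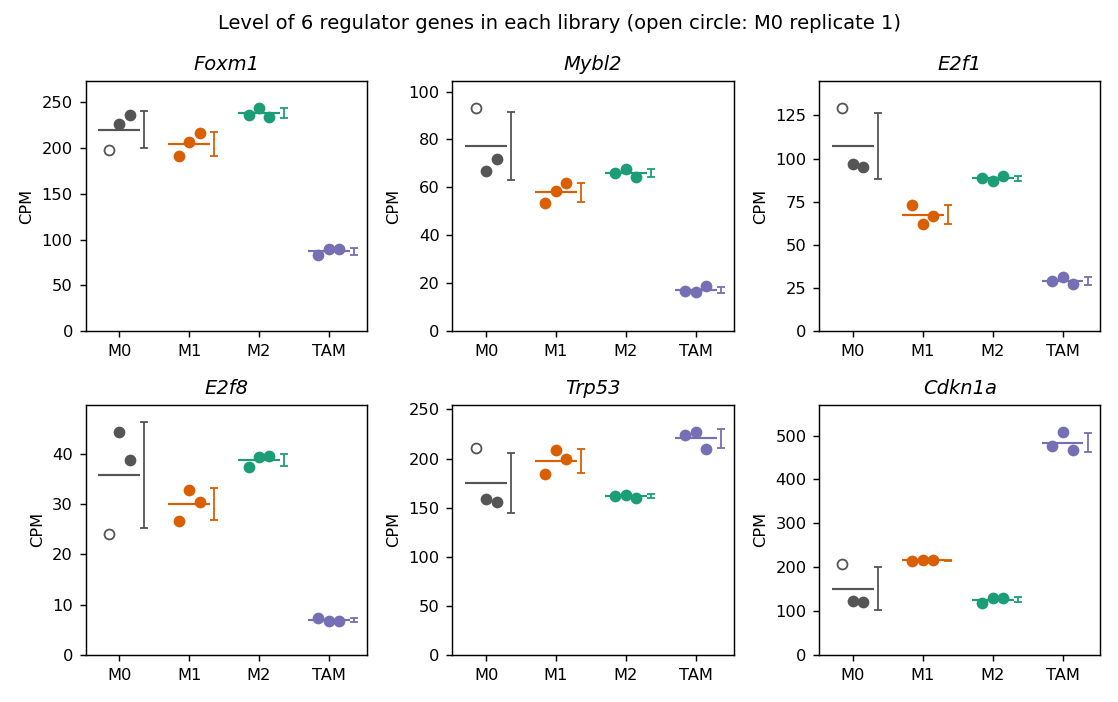
CPM in each library for 6 regulator genes, with the group mean (line) and SD (bar, n = 3), on axes that start at 0; the open circle is M0 replicate 1. Foxm1, Mybl2, E2f1 and E2f8 are lowest in TAM, while Cdkn1a is highest there, between 468 and 509 CPM.

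Counts of some members may include reads of neighbours, since the strand setting is not given in the sources used here. In 8 members at least 5% of the exon bases are shared with a gene on the opposite strand: Kif20a with Cdc23 (29.3%), Ube2c with Tnnc2 (22.8%), Kif4 with Pdzd11 (15.1%), Ncapg with Lcorl (13.4%), Cdc25c with Gm3550 (12.7%), Ccna2 with Exosc9 (12.5%), Prc1 with Rccd1 (11.1%) and Plk1 with Gm44985 (7.09%). Tnnc2 had 0 counts, so the Ube2c values have no counted neighbour. Summed over the libraries, the neighbour's counts were 66.6% of the member's for Kif4, 60.4% for Kif20a and 48.9% for Ncapg. They were 24.8% for Ccna2, 9.94% for Prc1, 0.98% for Cdc25c and 0.346% for Plk1. How many reads were shared was not tested. Ccnb1 and Ccnb2 have pseudogenes, whose own rows held 500 and 626 counts over the 12 libraries.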

How the data were processed

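RNA of B16F10 cells was sequenced in 12 libraries, 3 per medium. The authors deposited raw read counts per Ensembl gene. The submitters' processing notes name HISAT2 2.0 and mm10. For read counter, annotation and strand, settings were not given in the sources used here. The 50 genes and the gene lists were chosen with earlier results of these data known. Symbols were found for 55141 of 55487 identifiers, and 55227 were in GENCODE release M21 (GRCm38), which gave coordinates and merged exon lengths.

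Counts were fitted with edgeR 4.0.16 in R 4.3.3: filterByExpr, TMM scaling, 1 robust quasi-likelihood fit of all 12 libraries with a mean per group, Benjamini-Hochberg adjustment over 14591 genes (14968 without M0 replicate 1), calls at an adjusted p under 0.05. Every adjusted p comes from this test. SE is the absolute log2 change divided by the square root of F. The common dispersion was 0.0324, and 0.00166 without M0 replicate 1. The steps were tested on simulated counts. Alternatives were RLE scaling, no filter, DESeq2 1.42.0, limma-voom (limma 3.58.1), 2-group fits, a replicate block and leaving out each library. Of the 50 genes, those given in every library were the ones with the lowest and highest TAM change of their role group and those whose call differed from most of it. Plk1, Nuf2, Top2a and Pttg1 were added after their values were seen.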

Additional observations from a re-analysis of the deposited data

How the results depend on the processing

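With M0 replicate 1 kept, the spread shared by all groups was wide and calls were fewer. The number of the 50 genes called in TAM versus M0 was 42 and ranged from 37 to 50 over the leave-one-out fits, and in TAM versus M1 it was 41 (35 to 50) and in TAM versus M2 44 (41 to 50). In M2 versus M0 it was 0 in every fit. The M1 comparisons depended most on the fit. M1 versus M0 had 23 called, 14 with no filter, 2 with only the 2 groups compared, and 14 to 44 when 1 library was left out, 44 without M0 replicate 1 and 14 without M1 replicate 1 or 3. M1 versus M2 had 15 called, 5 with no filter, 43 with only the 2 groups compared, and 9 to 44 when 1 library was left out, 44 without M0 replicate 1. Calls over all genes tested shifted as well. In TAM versus M0 they were 7372 of 14591 with all libraries and 9983 of 14968 without M0 replicate 1. In M1 versus M0 they were 3744 and 7056, and in M1 versus M2 2512 and 7233. For the other fits, the replicate block included, calls over all genes are not set beside the member counts here. The member counts alone therefore do not show a shift particular to the 50 genes. The causes of these shifts were not tested. No change of a gene called reversed its sign. With the replicate number as a block the counts were 40 in TAM versus M0, 40 in TAM versus M1, 44 in TAM versus M2, 19 in M1 versus M0, 10 in M1 versus M2 and 0 in M2 versus M0. Libraries of the same number deviated from their group means with r between -0.129 and 0.163 over 18 pairs. Of the 12 libraries 1 correlated best with its own number. With 3 libraries per group, and M0 replicate 1 far from the others, these values cannot exclude a pairing or a shared batch. RLE in place of TMM moved the median of all genes by less than 0.03 on the log2 scale.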

Other observations

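Genes of DNA replication, a list of 36 that act before mitosis, were low in TAM medium as well. In TAM versus M0 35 fell and 1 rose, where 27.2% of all genes fell and 23.3% rose, with a median log2 change of -1.24. Without M0 replicate 1 the counts were again 35 and 1, where 33.7% and 33% of all genes did, with a median of -1.22. In M1 versus M0 18 fell and 0 rose (median -0.42), where 13.5% and 12.2% of all genes did, or 24 and 1 without M0 replicate 1 (median -0.27), where 22.9% and 24.3% did. In M2 versus M0 0 were called.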
